A study of Homo sapiens with 3 samples.

Results

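DNA replication depends on a fixed set of proteins that prepare the origins, unwind the DNA and copy it, and 47 genes for these proteins were examined here among 19689 protein-coding genes. They were listed by function, as genes of replication licensing and of the replication fork, and include MCM2, a gene that the study had taken as an example. All 47 were found in the annotation. Earlier results of these data were known when the list was made. The question was whether peaks of Strawberry Notch 1 (SBNO1) and of TATA-box binding protein associated factor 4 (TAF4) lay at the starts of these genes.

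The data were ChIP-seq peak lists from HuCCT1 cells (spelled HUCCT1 in the labels), an established cell line from cholangiocarcinoma, the cancer of the bile ducts. There were 3 libraries, 1 each for the antibodies against SBNO1, against TAF4 and for control IgG, from the same line and with no treatment named in the labels. SBNO1 is a helicase-like nuclear protein, and TAF4 is a subunit of TFIID, the factor that recognizes core promoters. Immunoprecipitates of several biological replicates had been pooled for each antibody before sequencing, so that every count below rests on 1 library and has no replicate error.

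The SBNO1, TAF4 and IgG lists held 16147, 12763 and 1598 peaks. Sequencing depth is unknown, since the lists hold no read numbers. A gene was taken to have a peak in reach when a peak edge lay within 1 kb of any of its protein-coding transcription start sites (TSS), and every gene in reach was counted. A start was covered when it lay inside the peak. Among bile duct marker genes, peaks in reach were found for KRT19, SOX9 and EPCAM in both lists and for KRT7 in the TAF4 list, whereas none of the hepatocyte genes ALB, APOA1 and TTR had a peak in reach. Peaks at a promoter are not a measure of expression.

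As background, replication begins with licensing. The origin recognition complex (ORC) marks origins, and CDC6 and CDT1 load the ring of MCM2 to MCM7 there, which geminin (GMNN) blocks by holding CDT1. The kinase CDC7 with DBF4 then fires the origin, and CDC45 and the GINS complex join the ring to form the active helicase. At the fork, polymerase alpha with primase starts each strand, replication factor C (RFC) loads the sliding clamp PCNA, polymerases delta and epsilon extend, RPA coats single strands, and FEN1 and LIG1 finish the Okazaki fragments. Many of these genes are known to be switched on before S phase by E2F factors.

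Several replication genes share a short stretch of DNA with a neighbour that is read in the opposite direction. The stretches between the outermost starts are shown for MCM2 and for 5 other genes where SBNO1 and TAF4 peaks covered the starts of both neighbours, as these are the sequences that both peaks contain. They are given 5′ to 3′ along the replication gene on GRCh38, in lower case. Capitals mark exact matches to GGGCGG (a KLF/SP consensus), CCAAT (NFY), CCGGAA (ETS) or the E2F consensus spelled out with the motif results, on either strand, and matches that overlap run together.
MCM2 and TPRA1, 143 bp, chr3:127598268-127598410, plus strand: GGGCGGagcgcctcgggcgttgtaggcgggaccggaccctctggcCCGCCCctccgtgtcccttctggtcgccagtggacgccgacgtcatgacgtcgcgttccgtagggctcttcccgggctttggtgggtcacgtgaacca
POLE3 and C9orf43, 66 bp, chr9:113410676-113410741, minus strand: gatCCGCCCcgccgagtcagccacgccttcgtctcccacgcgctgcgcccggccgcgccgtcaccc
MCM8 and TRMT6, 93 bp, chr20:5950559-5950651, plus strand: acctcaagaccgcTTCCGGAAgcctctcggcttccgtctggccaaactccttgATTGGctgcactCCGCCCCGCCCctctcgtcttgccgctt
FEN1 and TMEM258, 108 bp, chr11:61792803-61792910, plus strand: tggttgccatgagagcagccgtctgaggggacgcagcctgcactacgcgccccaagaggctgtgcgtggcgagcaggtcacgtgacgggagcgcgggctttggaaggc
DBF4 and SLC25A40, 132 bp, chr7:87876361-87876492, plus strand: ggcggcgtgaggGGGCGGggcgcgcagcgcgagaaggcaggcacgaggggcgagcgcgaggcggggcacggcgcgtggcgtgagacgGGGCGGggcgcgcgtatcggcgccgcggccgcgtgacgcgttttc
ORC1 and PRPF38A, 178 bp, chr1:52404424-52404601, minus strand: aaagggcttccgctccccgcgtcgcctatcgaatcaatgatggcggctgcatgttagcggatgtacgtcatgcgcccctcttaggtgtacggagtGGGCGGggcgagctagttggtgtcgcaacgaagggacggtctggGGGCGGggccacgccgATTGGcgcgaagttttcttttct

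The 150 bp upstream of 3 genes with neither an SBNO1 nor a TAF4 peak in reach are shown beside them, since these genes work together with MCM2. MCM5 and MCM6 form the helicase ring with it, and MCM10 helps to start the helicase.
MCM5, chr22:35399987-35400136, plus strand: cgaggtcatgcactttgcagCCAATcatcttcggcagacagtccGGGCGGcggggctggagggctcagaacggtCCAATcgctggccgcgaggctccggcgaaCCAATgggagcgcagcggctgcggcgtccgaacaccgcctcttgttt
MCM6, chr2:135876444-135876593, minus strand: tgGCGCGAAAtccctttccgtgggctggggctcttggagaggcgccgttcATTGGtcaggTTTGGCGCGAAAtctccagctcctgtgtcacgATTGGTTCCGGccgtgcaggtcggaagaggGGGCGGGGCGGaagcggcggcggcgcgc
MCM10, chr10:13161408-13161557, plus strand: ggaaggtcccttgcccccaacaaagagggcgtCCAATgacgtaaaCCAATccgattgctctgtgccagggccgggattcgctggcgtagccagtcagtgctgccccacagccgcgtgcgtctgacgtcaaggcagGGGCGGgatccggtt
In these stretches KLF/SP matches were found with and without peaks: 2 at MCM2 and 2 at MCM6, against none in the stretch of FEN1.

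Peaks of both proteins were found at 18 of the 47 genes. SBNO1 peaks were in reach of 23 genes (48.9%, 95% Clopper-Pearson interval 34.1% to 63.9%), whereas 25.7% of the 19689 protein-coding genes had such a peak. TAF4 peaks were in reach of 24 genes (51.1%, interval 36.1% to 65.9%), compared with 31.9% of all genes. Both were in reach of 38.3% (interval 24.5% to 53.6%), compared with 22.6% of all genes. The IgG control had a peak in reach of 1 gene, RPA3 (2.13%, interval 0.0539% to 11.3%), compared with 1.41% of all genes. The intervals cover counting error only, and their lower bounds lay above the share of all genes for SBNO1, for TAF4 and for both together. For SBNO1 and for both together, but not for TAF4, the excess was small at the highest score, where few genes remained. With peaks at or above their list's median score, SBNO1 was in reach of 23.4% of replication genes and 13.1% of all genes. Both proteins were in reach of 14.9%, compared with 9.21%, and TAF4 of 38.3%, compared with 19.6%. Among peaks at the highest score alone, SBNO1 was in reach of 5 replication genes (10.6%, compared with 9.14% of all genes) and both proteins of 3 (6.38%, compared with 6.22%), while TAF4 was in reach of 17 (36.2%, compared with 17.3%).

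Most of these peaks covered a start of the gene itself. SBNO1 peaks covered a TSS of 22 replication genes (46.8%), compared with 21.7% of all genes. TAF4 peaks covered a TSS of 23 (48.9%), compared with 28.8%. Peaks of both proteins did so at 17 genes (36.2%), compared with 19.2% of all genes. No IgG peak covered a start of a replication gene, while this held for 0.980% of all genes. The canonical start, which is the start of the main transcript in the annotation, was covered by SBNO1 at 19 genes (40.4%), compared with 18.9% of all genes. TAF4 covered it at 22 genes (46.8%), compared with 26.4%.

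The genes with peaks of 1 protein were fewer. An SBNO1 peak without a TAF4 peak in reach was found at MCM3, CDC45, RFC3, RFC5 and POLA1 (10.6%, interval 3.55% to 23.1%), compared with 3.08% of all genes. A TAF4 peak without SBNO1 was found at MCM7, ORC3, ORC5, ORC6, GINS4 and POLD2 (12.8%, interval 4.83% to 25.7%), compared with 9.29% of all genes. Of the 23 genes with SBNO1, 78.3% (interval 56.3% to 92.5%) also had TAF4, while among all genes with SBNO1 88.0% did. The remaining 18 genes had neither peak in reach.

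**Figure D1:**
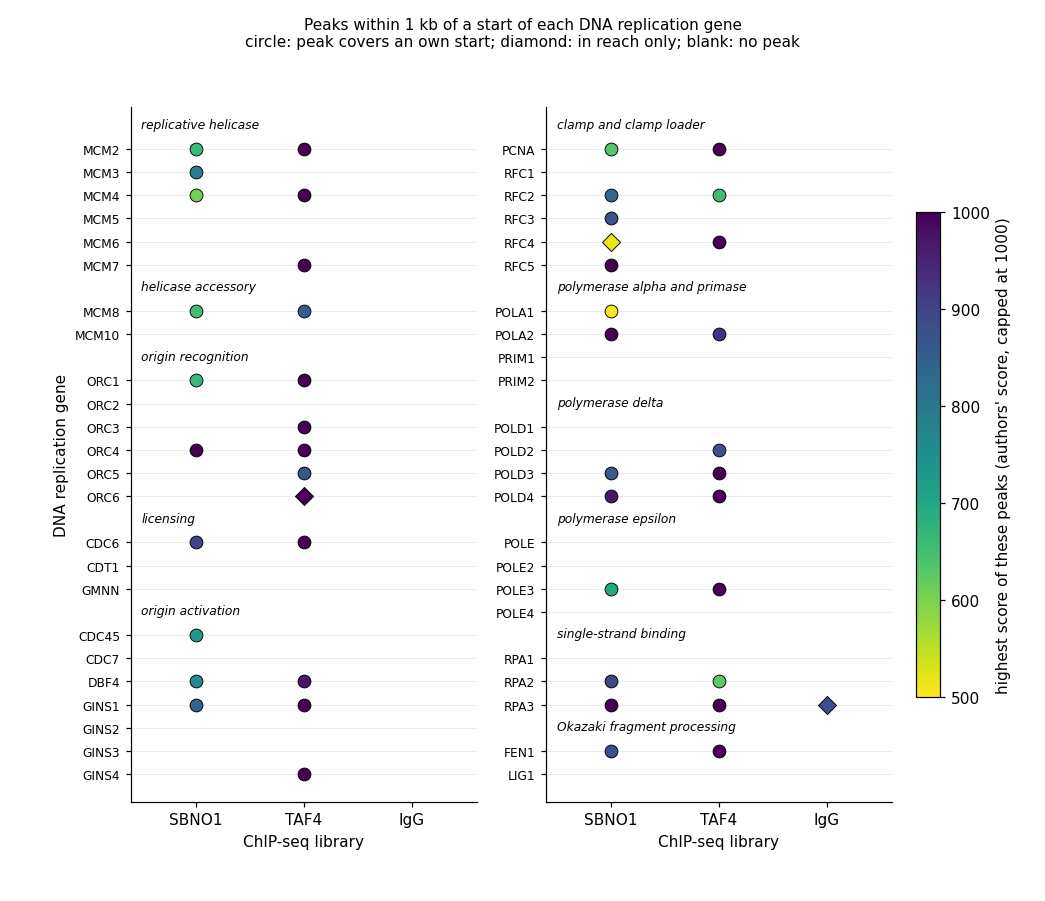
SBNO1, TAF4 and IgG peaks (x axis) within 1 kb of a start of each of the 47 replication genes (y axis), grouped by complex. Circles are peaks that covered a start of the gene and diamonds are peaks in reach only, and the colour is the highest score of these peaks on the authors' scale, capped at 1000. Of the 47 genes, 18 have a mark for both SBNO1 and TAF4, and RPA3 alone has a mark for IgG.

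In the helicase ring, MCM2 and MCM4 had both peaks, MCM3 had SBNO1 only, MCM7 had TAF4 only, and MCM5 and MCM6 had neither. At MCM2 the SBNO1 peak spanned chr3:127598126-127598462 (337 bp) and had a score of 663. The TAF4 peak spanned chr3:127598180-127598463 (284 bp) and had a score of 1000. Scores are whole numbers up to 1000 that the authors deposited without stating their scaling, and they can rank peaks only within a list. Both peaks ran across alternative starts of TPRA1 into the first bases of MCM2, and 99.6% of the TAF4 peak lay within the SBNO1 peak. The canonical starts of MCM2 and TPRA1 lie 7678 bp apart. An alternative start of TPRA1 was closer to the centre of both peaks than the start of MCM2. A rule that gives each peak to the nearest TSS of any transcript would thus have assigned both to TPRA1. The nearest IgG peak was 2719238 bp away.

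MCM4 shares its promoter with PRKDC, the catalytic subunit of the DNA-dependent protein kinase. A single SBNO1 peak of 938 bp (score 606) covered the starts of both genes. Beneath it lay a pair of TAF4 peaks, of 329 bp (score 949) over the start of PRKDC and an upstream start of MCM4 and of 318 bp (score 1000) over the canonical start of MCM4. MCM3 had an SBNO1 peak of 353 bp and score 790 over its canonical start, and the nearest TAF4 peak lay 67503 bp from a start. MCM7, which shares a promoter with AP4M1, showed the opposite, with a TAF4 peak of 323 bp and score 1000 over the starts of both genes and the nearest SBNO1 peak at 17399 bp. For MCM5 the nearest SBNO1 peak was 22939 bp away and for MCM6 72258 bp.

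Of the related genes, MCM8, which works in recombination repair, had both peaks over its start and that of TRMT6, a subunit of a tRNA methyltransferase. The SBNO1 peak had a score of 652 and the TAF4 peak 853. MCM10 had no peak of either protein within 422621 bp.

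In the ORC, 5 of 6 genes had a TAF4 peak and 2 had an SBNO1 peak, compared with 31.9% and 25.7% of all genes. ORC4, with a promoter shared with MBD5, had an SBNO1 peak of 518 bp and a TAF4 peak of 481 bp, both at the highest score of 1000, and this was the widest SBNO1 peak at that score that covered a start of a replication gene. ORC1, the largest ORC subunit, shares its promoter with the splicing factor gene PRPF38A. Its SBNO1 peak (726 bp, score 663) ran from -723 to 2 bp relative to the start of ORC1, past the start of PRPF38A at -179 bp, while the TAF4 peak (328 bp, score 1000) ran from -278 to 49 bp.

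ORC3, ORC5 and ORC6 had TAF4 only. At ORC3 the TAF4 peak was 180 bp wide with a score of 1000 and also covered RARS2, the gene of a mitochondrial aminoacyl-tRNA synthetase, and the nearest SBNO1 peak was 51283 bp away. At ORC5, a gene without a divergent neighbour, the TAF4 peak (254 bp, score 867) covered all 3 starts and the nearest SBNO1 peak was 547114 bp away. At ORC6 the TAF4 peak (192 bp, score 1000) covered only the start of VPS35, a retromer subunit, and ended 292 bp from the start of ORC6. ORC2 had neither peak within 73294 bp.

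Among the licensing factors, CDC6 had both peaks and CDT1 and GMNN had none. The SBNO1 peak at CDC6 (667 bp, score 901) was centred 246 bp upstream of the canonical start. The TAF4 peak (703 bp, score 1000) was centred 42 bp downstream of it, and the peaks shared 397 bp. The nearest SBNO1 peak was 38476 bp from CDT1 and 53467 bp from GMNN.

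Of the genes for origin activation, DBF4 and GINS1 had both peaks. DBF4, the activating subunit of the CDC7 kinase, had an SBNO1 peak (584 bp, score 763) and a TAF4 peak (738 bp, score 973) that both covered its start and that of SLC25A40. CDC7 itself had neither peak, the nearest being SBNO1 at 66547 bp. CDC45 had an SBNO1 peak of 303 bp and score 730 over its canonical start. This peak did not cover UFD1, the divergent neighbour, and the nearest TAF4 peak was 31579 bp away.

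The GINS complex was covered unevenly. GINS1 has starts at a pair of distant places in the annotation, and a TAF4 peak of score 1000 lay at each. Its SBNO1 peak (323 bp, score 845) lay only at the upstream place, which GINS1 shares with ABHD12, 16496 bp from the canonical start. GINS4 had a TAF4 peak (300 bp, score 1000) over all 4 of its starts, and the nearest SBNO1 peak was 38542 bp away. GINS2 and GINS3 had neither.

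For the clamp and its loader, 5 of 6 genes had an SBNO1 peak and 3 had a TAF4 peak. The shares of all genes were 25.7% for SBNO1 and 31.9% for TAF4. An SBNO1 peak covered a start at 4 of the 6, compared with 21.7% of all genes. PCNA, the sliding clamp, had peaks of both proteins at each of its 2 starts. At the upstream start, shared with the lipid synthesis gene CDS2, the SBNO1 peak (652 bp, score 633) and the TAF4 peak (750 bp, score 1000) covered both genes. At the canonical start the TAF4 peak (690 bp, score 1000) covered the TSS. The SBNO1 peak there (213 bp, score 1000) lay inside this TAF4 peak and ended 26 bp before the TSS.

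The loader subunits RFC3 and RFC5 had SBNO1 only. At RFC5 the SBNO1 peak was 298 bp wide with a score of 1000 and covered 5 of 6 starts, and the nearest TAF4 peak was 35825 bp away. At RFC3 it was 251 bp wide with a score of 876, with the nearest TAF4 peak at 274848 bp. RFC2 had both peaks, of score 831 for SBNO1 and 653 for TAF4. RFC4 was counted for both on different ground: the TAF4 peak (191 bp, score 1000) covered the canonical start, while the SBNO1 peak (699 bp, score 517) lay 810 bp from an alternative start and 15442 bp from the canonical one. RFC1, the large subunit, had no peak in reach, and its nearest SBNO1 peak lay 2767 bp from a start, within the gene.

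Polymerase alpha begins each new strand. POLA1, its catalytic subunit, had an SBNO1 peak over all 3 starts (549 bp, score 504), the lowest score of the SBNO1 peaks at replication genes, and the nearest TAF4 peak was 638923 bp away. POLA2, its second subunit, had an SBNO1 peak (344 bp, score 1000) and a TAF4 peak (508 bp, score 931) over 3 of 4 starts. The primase genes PRIM1 and PRIM2 had neither peak. PRIM1 came nearest, with an SBNO1 peak at 17313 bp and a TAF4 peak at 17545 bp.

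The catalytic subunits POLD1 and POLE of the other replicative polymerases had no peak in reach either. Of the smaller subunits of polymerase delta, POLD3 and POLD4 had both peaks and POLD2 had TAF4 only (282 bp, score 878), with the nearest SBNO1 peak at 39278 bp. POLD4 had peaks at its starts (SBNO1 425 bp and score 971, TAF4 402 bp and score 1000) and a second pair upstream, 888 bp and 867 bp from the nearest start (SBNO1 score 773, TAF4 score 1000). POLD3 also had a pair at its canonical start (SBNO1 score 863, TAF4 score 1000). A second pair at its most upstream start lay 488 bp and 453 bp away and covered the start of LIPT2, its divergent neighbour. For polymerase epsilon, POLE3, a histone-fold subunit, had both peaks, whereas POLE2 and POLE4 had none. Its SBNO1 peak (397 bp, score 697) and its TAF4 peak (577 bp, score 1000) both covered the start of C9orf43 as well.

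Of the RPA genes, RPA2 had both peaks over 3 of 5 starts (SBNO1 438 bp and score 893, TAF4 371 bp and score 626), and RPA1 had none. RPA3 was the gene with an IgG peak. Its peaks lay at alternative starts more than 77634 bp downstream of the canonical start, beside the start of UMAD1. The TAF4 peak there (627 bp, score 1000) and the larger SBNO1 peak (496 bp, score 1000) overlapped the IgG peak at chr7:7640444-7640724 (281 bp, score 882). A second SBNO1 peak (483 bp, score 525) did not overlap it. Without the peaks that overlapped an IgG peak, RPA3 had SBNO1 but no TAF4 in reach, and the genes with TAF4 numbered 23 and those with both 17.

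In Okazaki fragment processing, FEN1, the flap nuclease, had both peaks and LIG1, the ligase, had none. FEN1 resembled MCM4, with a wide SBNO1 peak (990 bp, score 875) over a pair of TAF4 peaks. The TAF4 peak of 457 bp (score 1000) covered the starts of FEN1 and TMEM258, and the other (396 bp, score 782) lay 514 bp from a FEN1 start.

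**Figure D2:**
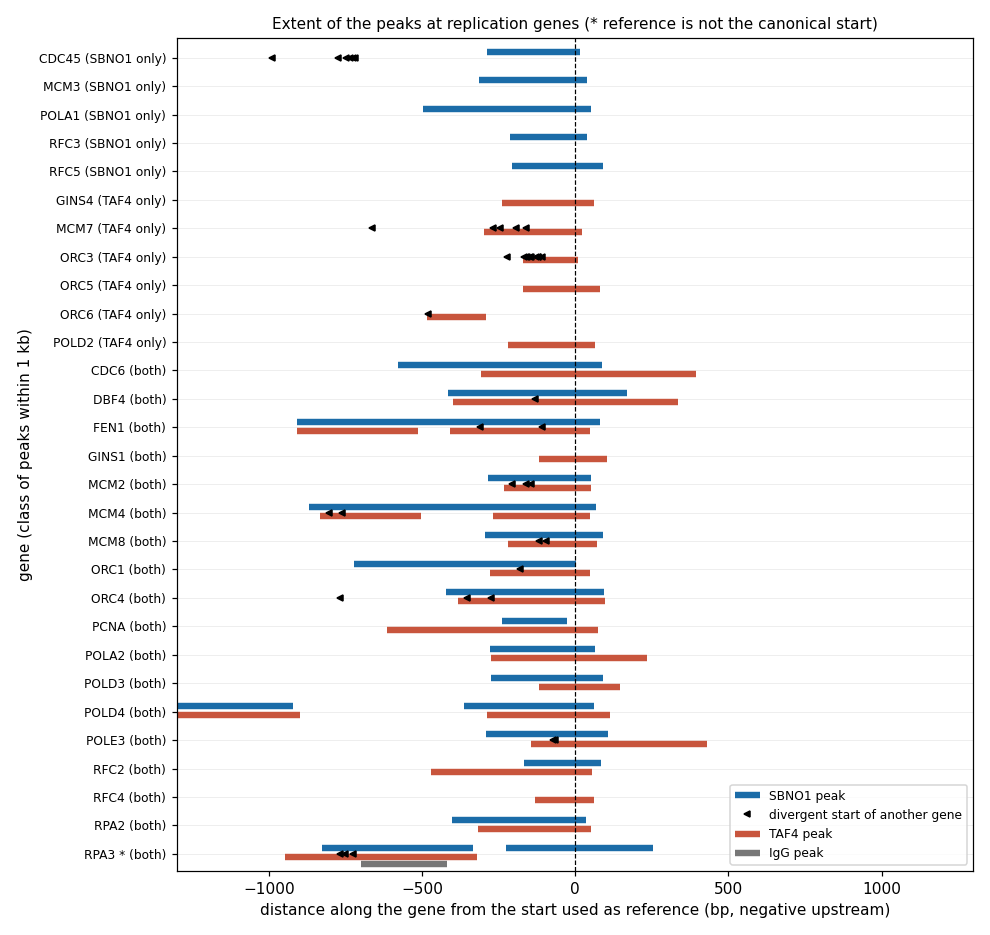
Extent of each SBNO1 (blue), TAF4 (red) and IgG (grey) peak in bp from the reference start (dashed line, negative upstream) for the 29 genes with a peak in reach, with starts of divergent neighbours as triangles. The reference is the canonical start except for RPA3 (asterisk), and peaks beyond the axis, such as the SBNO1 peaks of GINS1 and RFC4, are not drawn. At MCM4 and FEN1 1 SBNO1 bar spans a pair of TAF4 bars.

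The 18 genes with neither peak were MCM5, MCM6, MCM10, ORC2, CDT1, GMNN, CDC7, GINS2, GINS3, RFC1, PRIM1, PRIM2, POLD1, POLE, POLE2, POLE4, RPA1 and LIG1. For SBNO1 the distance from their starts to the nearest peak had a median of 66787.5 bp and a range of 2767 to 650672 bp, and 2 genes, RFC1 and POLD1, had a peak within 10000 bp. For TAF4 the median was 81774 bp and the range 17545 to 422621 bp. Apart from RFC1, which gained SBNO1 with a reach of 3 kb, these genes were thus not just outside the 1 kb limit. A peak list holds only what passed the authors' threshold, so weaker binding at these genes was not detectable here.

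Divergent promoters were frequent among the replication genes. An opposite-strand protein-coding gene starting head to head within 1 kb was annotated for 20 of the 47 (42.6%, interval 28.3% to 57.8%), compared with 14.4% of all genes. The gaps ranged from 7 bp for MCM4 and PRKDC to 726 bp for RPA3 and UMAD1. Some of these pairs rest on an alternative start. With 1 canonical start per gene, a divergent partner was found for 14 of the 47 (29.8%), compared with 9.43% of all genes. Among all genes, those with a divergent partner more often had a peak in reach than those without, and a peak between a pair of starts was counted for both genes.

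The shares were therefore also read within each kind of promoter. With a partner, SBNO1 was in reach of 13 of 20 replication genes (65.0%, interval 40.8% to 84.6%), compared with 52.7% of all such genes. TAF4 was in reach of 15 of 20 (interval 50.9% to 91.3%), compared with 63.5%, and both of 12 (60.0%, interval 36.1% to 80.9%), compared with 48.7%. All these intervals include the share of all genes.

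Without a partner, SBNO1 was in reach of 10 of 27 replication genes (37.0%, interval 19.4% to 57.6%), compared with 21.1% of all such genes. TAF4 was in reach of 9 (33.3%, interval 16.5% to 54.0%), compared with 26.6%, and both of 6 (22.2%, interval 8.62% to 42.3%), compared with 18.2%. Here too the intervals include the share of all genes. With the partner frequency of the replication genes, all genes would have shares of 34.6% for SBNO1, 42.3% for TAF4 and 31.2% for both. The replication genes' 48.9%, 51.1% and 38.3% were higher than these, but the values lie within their intervals.

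**Figure D3:**
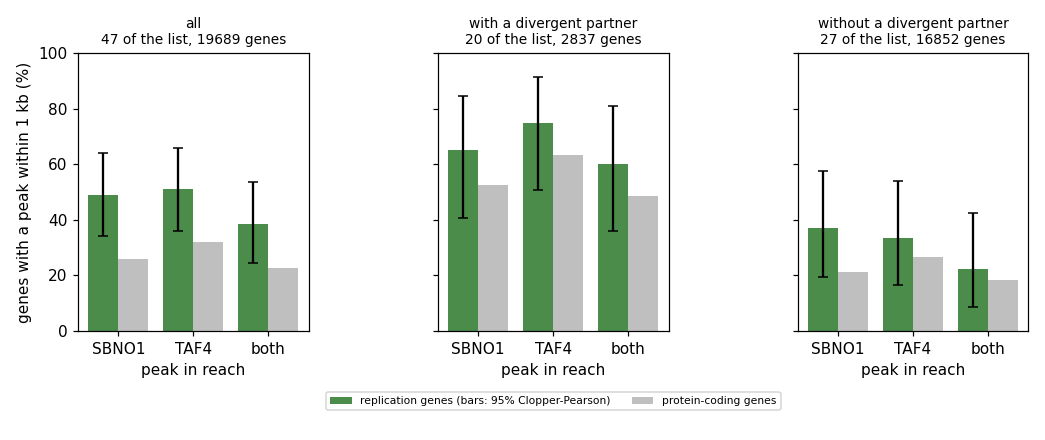
Share of genes (y axis, %) with an SBNO1 peak, a TAF4 peak or both within 1 kb of a start, for replication genes (green, with 95% Clopper-Pearson intervals) and protein-coding genes (grey), for all genes and split by divergent partner. The green bars are higher than the grey bars in each panel, while the intervals in the panels split by partner include the grey values.

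Replication genes also had slightly more annotated starts, with a median of 4 compared with 3 for all genes. The part of the number of starts in the shares was not tested. Among genes with 3 to 5 starts, which held 25 of the 47, SBNO1 was in reach of 10 replication genes and of 27.7% of all genes. TAF4 was in reach of 12 replication genes and of 34.6% of all genes with that number of starts. With 1 or 2 starts, SBNO1 was in reach of 5 of 10 replication genes and of 18% of all genes, and TAF4 also of 5, compared with 22.7%. With 6 to 10 starts, SBNO1 was in reach of 8 of 11 and of 36.0% of all genes, and TAF4 of 6, compared with 44%. The single gene with more starts, POLD2, had TAF4 only, while 42.4% of such genes had SBNO1 and 50.7% had TAF4.

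Next, the peaks themselves were compared with other promoter peaks of the same library. There were 27 SBNO1 peaks and 30 TAF4 peaks in reach of replication genes. The SBNO1 peaks had a median width of 425 bp (range 213 to 990 bp), and all SBNO1 promoter peaks had 420 bp. The TAF4 peaks had a median width of 348.5 bp (range 180 to 750 bp), and all TAF4 promoter peaks had 418 bp. The SBNO1 score had a median of 831 at replication genes and 850 at all promoter peaks, with 18.5% and 32.2% at the highest score. For TAF4 both medians were 1000, with 66.7% at the highest score at replication genes and 50.1% at all promoter peaks.

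The 5 replication genes with the highest-scoring SBNO1 peaks over a start of their own were ORC4, RPA3, POLA2 and RFC5, all at 1000, and POLD4 at 971. Relative to the nearest start of the gene, SBNO1 peaks were centred at a median of -92 bp and TAF4 peaks at -57.2 bp, where a minus sign means upstream. At all promoter peaks the medians were -64.5 bp for SBNO1 and -56.2 bp for TAF4.

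Of the 27 SBNO1 peaks, 20 overlapped a TAF4 peak (74.1%, interval 53.7% to 88.9%), while 83.8% of all SBNO1 promoter peaks did. These made 22 overlapping pairs, since the wide peaks at MCM4 and FEN1 each met a pair of TAF4 peaks. The SBNO1 peak was the wider one in 12 pairs and the TAF4 peak in 10, and the centres were a median of 99.2 bp apart. In the median pair, 79.2% of the SBNO1 peak and 86.2% of the TAF4 peak were shared. Another gene was in reach of 14 of the 27 SBNO1 and 17 of the 30 TAF4 peaks. Given only to the gene of the nearest TSS, 9 SBNO1 and 10 TAF4 peaks would have gone to a neighbour rather than to the replication gene. These counts of shared peaks were not set against all promoter peaks, so they do not show whether such sharing is particular to replication genes.

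Peaks inside the genes but over 1 kb from any protein-coding start were few. SBNO1 had such peaks in RFC1, POLA2 and POLD3 (6.38% of the replication genes, compared with 13.8% of all genes), and TAF4 had them in POLA2 and POLD3 (4.26%, compared with 8.56%). POLA2 held a pair of SBNO1 peaks, each overlapping a TAF4 peak, and 1 of these sites, 13309 bp from a start, also had an IgG peak of score 985. The median gene length was 31595 bp for the replication genes and 27330 bp for all genes.

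The peaks were spread unevenly over the chromosomes. On chromosome 16, of ORC6, CDT1, GINS2 and GINS3, none had an SBNO1 peak in reach and only ORC6 had a TAF4 peak. Among all genes of this chromosome SBNO1 was in reach of 8.19% and TAF4 of 18.9%. The part of the chromosome in the values of these genes was not tested. When chromosome 16 was left out, SBNO1 was in reach of 23 of 43 genes (53.5%, compared with 26.5% of all genes), and TAF4 also of 23 (53.5%, compared with 32.5%). On chromosome 11 all 4 replication genes (POLA2, POLD3, POLD4 and FEN1) had both peaks, while among all genes there 34.9% had SBNO1, 36.5% TAF4 and 4.88% IgG in reach, the last being the highest IgG share of any chromosome. On chromosome 7 all 6 (MCM7, ORC5, DBF4, RFC2, POLD2 and RPA3) had TAF4 and 3 had SBNO1, compared with 33.2% and 27.9% of all genes there. On chromosome 20 all 3 replication genes had both peaks, compared with 31.7% for SBNO1 and 35.8% for TAF4 among all genes there. Both peaks were also in reach of the 2 replication genes of chromosome 3 and the 1 of chromosome 9. Among all genes, SBNO1 was in reach of 29% on chromosome 3 and 24.8% on chromosome 9, and TAF4 of 34.8% and 31.1%. Of these replication genes, RFC4 on chromosome 3 had no start covered by its SBNO1 peak, which lay 15442 bp from the canonical start. On some other chromosomes fewer of the replication genes had peaks. On chromosome 12 SBNO1 was in reach of 1 of 3 replication genes and TAF4 of none, compared with 31.9% and 37.5% of all genes. On chromosome 19 neither was in reach of its 2 genes, compared with 22.4% and 28.4%. On chromosome 2, ORC4 alone of 4 genes had both, compared with 22.6% for SBNO1 and 32.5% for TAF4. On chromosome 6 each was in reach of 1 of 4 genes, compared with 20.3% and 28.1%.

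The promoters were then searched for consensus sequences, from 250 bp upstream to 50 bp downstream of the canonical start. The E2F consensus was taken as TTTCCCGC, TTTCGCGC, TTTGCCGC or TTTGGCGC on either strand. It was found in 22 of the 47 promoters (46.8%, interval 32.1% to 61.9%), compared with 4.35% of all 19689. The GC content was similar, with a median of 64.7% for the replication genes and 63.7% for all genes. The number of CG pairs (a C followed by a G), which each E2F word holds, had a median of 29 and of 23. The part of this difference in the E2F share was not tested. The 30 matches lay between -230 and 27 from the start, counting the start as 1, with a median of -31. Matches that overlap on opposite strands are counted separately.

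The matches nearest to the canonical start are shown for 5 genes of the helicase ring, because they cover every combination of peaks. Each line gives 28 bases along the gene, 5′ to 3′, and the capitals are the 8 bases of the match.
MCM2, both peaks, chr3:127598403-127598430, plus strand: gtgaaccactTTTCGCGCgaaacctggt
MCM3, SBNO1 only, chr6:52284729-52284756, minus strand: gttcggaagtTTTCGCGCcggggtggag
MCM7, TAF4 only, chr7:100101389-100101416, minus strand: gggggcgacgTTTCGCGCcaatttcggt
MCM5, neither, chr22:35400126-35400153, plus strand: gcctcttgttTTTCCCGCgaaactcggc
MCM6, neither, chr2:135876512-135876539, minus strand: gtcaggtttgGCGCGAAAtctccagctc
The match at MCM2 began at base 3 of the gene and lay inside both peaks. MCM2, MCM3 and MCM7 thus had the same 8 letters near the start with different combinations of peaks.

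The E2F consensus was present with and without peaks. It was found at 10 of 23 replication genes with SBNO1 in reach (43.5%, interval 23.2% to 65.5%) and at 12 of 24 without (50%, interval 29.1% to 70.9%). For TAF4 it was found at 9 of 24 genes with a peak (37.5%, interval 18.8% to 59.4%) and at 13 of 23 without (56.5%, interval 34.5% to 76.8%). The window lies at the canonical start, while a peak in reach may lie at another start, as for SBNO1 at GINS1, RFC4 and RPA3. Of the 10 genes with SBNO1 and a match, 9 had a match inside an SBNO1 peak. Of the 18 genes with neither peak, 10 had a match, namely MCM5, MCM6, CDT1, GINS2, GINS3, POLD1, POLE, POLE2, POLE4 and LIG1. Of the 18 genes with both peaks, 7 had a match (MCM2, MCM4, MCM8, CDC6, GINS1, POLA2 and POLD3). The intervals of these groups overlap widely. Among all genes, the consensus was found in 6.60% of those with SBNO1 in reach and in 3.57% of those without. A match to these letters is a description of the sequence and not a measured E2F site.

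Other consensus sequences differed less from all genes. CCAAT (NFY) was found in 57.4% of the replication gene promoters (interval 42.2% to 71.7%), compared with 36.1% of all promoters. GGGCGG (KLF/SP) was found in 72.3% (interval 57.4% to 84.4%), compared with 61.6%, and CCGGAA (ETS) in 36.2% (interval 22.7% to 51.5%), compared with 22.7%. The cell cycle homology region, searched as TTTGAA or TTCGAA, was found in 6.38%, compared with 12.8%. TATAAA was found in 4.26%, compared with 9.65%. The AP-1 consensus TGACTCA or TGAGTCA was in none of the 47 windows (interval up to 7.55%) and in 3.56% of all.

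**Figure D4:**
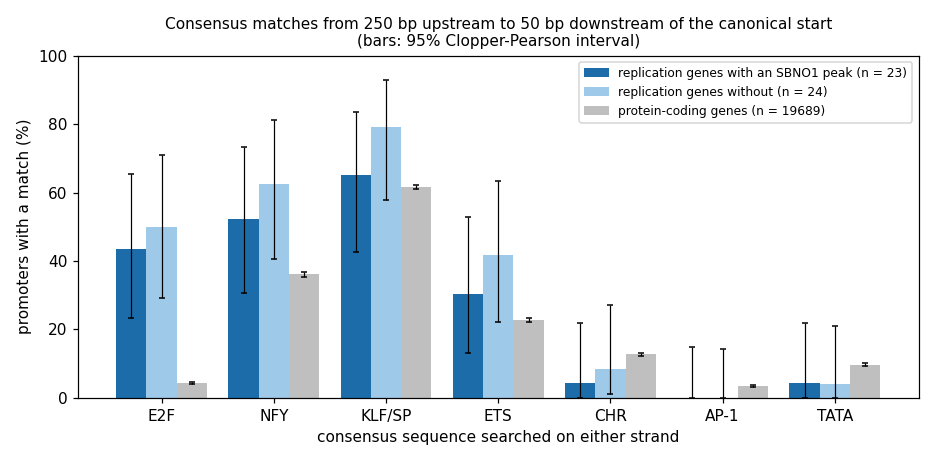
Share of promoters (y axis, %) with a match to each consensus (x axis) from 250 bp upstream to 50 bp downstream of the canonical start, for 23 replication genes with an SBNO1 peak in reach (dark blue), 24 without (light blue) and all protein-coding genes (grey), with 95% Clopper-Pearson intervals. For E2F the blue bars are at 43.5% and 50% and the grey bar at 4.35%, and the blue intervals overlap for every consensus.

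The same questions were asked of 34 other genes of replication, chosen for their roles in origin firing, fork protection, clamp loading, primer removal, topology, nucleotide supply and histone deposition. SBNO1 was in reach of 12 of them (35.3%, interval 19.7% to 53.5%), TAF4 of 17 (50%, interval 32.4% to 67.6%) and both of 11 (32.4%, interval 17.4% to 50.5%), compared with 25.7%, 31.9% and 22.6% of all protein-coding genes. IgG was in reach of none. The intervals for SBNO1 and for both include the share of all genes, and the lower bound for TAF4 lies just above it. A divergent partner was annotated for 8 of the 34 (23.5%, interval 10.7% to 41.2%), compared with 14.4% of all genes. The E2F consensus was found in 6 (17.6%, interval 6.76% to 34.5%), compared with 4.35% of all genes.

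Both peaks were in reach of TOP1 and TOP2A, the topoisomerases that relieve the twist of the DNA, of TIPIN and WDHD1, which act at the fork, of ASF1B and CHAF1A, which hand histones to new DNA, and of TK1, the thymidine kinase. They were also in reach of MTBP, DBF4B, MCMBP and ATAD5. RRM1, the large subunit of ribonucleotide reductase, had SBNO1 only. TAF4 without SBNO1 was in reach of genes such as TICRR, RNASEH2C, TOP2B, ASF1A and NASP. Among the 16 with neither were RRM2 and TYMS, which also supply nucleotides, and TIMELESS and CLSPN, which protect the fork.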

How the data were processed

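ChIP-seq peak lists of 3 libraries from HuCCT1 cells were used. Per the labels, an enzymatic chromatin kit was used. The methods of the study name ktrim for trimming of the single-end reads, bowtie2 for alignment to GRCh38.p14 and normR for peak calling. The submitters' processing notes list Bowtie2 2.5.4 and Genrich 0.6.1 without a role, so the caller of these lists is not settled. The threshold, the treatment of duplicate reads and the use of IgG as control are not given in the sources used here. Each list gave chromosome, start, end, name, strand and a score. The deposited score is the authors' whole number with a cap of 1000, of unstated scaling, and was used only to rank peaks within a list. No read numbers were given, so depth is unknown.

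The 78567 starts of protein-coding transcripts in GENCODE 44, which belong to 19689 protein-coding genes, were used. Distances were measured from the peak edge, with a reach of 1 kb, and peaks shared by 1 bp or more were called overlapping. The genome copy held all 54 RefSeq promoters of 41 of the genes letter for letter, and no peak lay beyond a chromosome end. Shares have exact 95% Clopper-Pearson intervals from scipy 1.17.1, with pandas 2.3.3 and pysam 0.24.0 in python 3.11.15. With 1 library per antibody no test was made and no p-values were computed. Genes and peaks are not replicates.

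The 47 genes, the further lists and the motifs were chosen with earlier results of these data known. By rule, values were given for MCM2, genes with a peak of only 1 protein, genes with an IgG peak, peaks that covered no start of the gene, and the 5 highest-scoring SBNO1 peaks over a start. Values of other genes were added for completeness. Some items of the further lists are not reported here. Alternatives were other reaches, start sets, overlap rules, score filters, motif windows and removal of IgG peaks. Leaving out chromosome 16 was chosen after seeing the data. The functions were tested on simulated data, with all 2000 start classes, 750 overlaps and 50 motifs recovered.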

Additional observations from a re-analysis of the deposited data

How the results depend on the processing

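Of 57 alternatives computed, 45 left the value within 1.5 times the main count or within its counting interval, and 12 moved it. The share of replication genes with SBNO1, with TAF4 and with both was above that of all genes in each of 11 settings, with lowest ratios of 1.16 and 1.03 for SBNO1 and for both, with peaks at the highest score alone, and 1.33 for TAF4, with each peak given only to the nearest start. Peaks at or above the median score of their list left 11 genes with SBNO1 (23.4%, compared with 13.1% of all genes), 7 with both (14.9%, compared with 9.21%) and 9 with a start covered by SBNO1 (19.1%, compared with 11%). Peaks at the highest score alone left 5 (10.6%, compared with 9.14%), 3 (6.38%, compared with 6.22%) and 4 (8.51%, compared with 7.58%), and 0 genes with IgG. Giving each peak only to the nearest start left 16 genes with SBNO1 (34%, compared with 21.8% of all genes). The same setting left 17 with TAF4 (36.2%, compared with 27.2%), 10 with both (21.3%, compared with 18%) and 0 with IgG. The use of 1 canonical start per gene also left 0 with IgG. A reciprocal overlap of 50% lowered the share of SBNO1 peaks overlapping TAF4 to 51.9%, compared with 70.9% of all SBNO1 promoter peaks. The window at the most upstream start lowered the E2F share to 29.8%, compared with 3.94% of all genes. Leaving out chromosome 16, chosen after seeing the data, kept the counts within 1.5 times. The score filters keep fewer peaks by construction. No paired analysis was possible because there was only 1 library for each antibody. Replicate error and depth could not be assessed.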
